A study of Mus musculus with 4 samples.

Results

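RUNX and ETS proteins are DNA-binding transcription factors that shape the open chromatin of lymphocytes. The accessible regions around 10 of their genes were examined in natural killer (NK) cells, innate lymphocytes that kill infected and transformed cells. The genes were Runx1, Runx2, Runx3, Cbfb, Ets1, Ets2, Fli1, Elf1, Elf4 and Etv6. They were taken from a list of names, and a region was counted for a gene when no other protein-coding gene, measured to its span, lay nearer. This gave 370 of the 91266 accessible regions deposited for the study, spread over all 10 genes. The cells were wild-type splenic NK cells of C57BL/6 mice, cultured for 72 h in interleukin-15 (IL-15), which sustains the survival and growth of NK cells. Of the 4 samples, 2 biological replicates received a high dose and 2 a low dose, whose concentrations the labels do not give. ATAC-seq, in which a transposase inserts adapters into open chromatin, was run on about 75000 cells per replicate.

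The deposited tables hold positions for the study as a whole: the list of all accessible regions, and the regions that the authors called up or down between the doses. Which dose was the reference is not stated, so up and down are used as deposited and neither is given to a dose. The tables hold no value per sample. The spread between replicates, the depth behind a region and the degree of accessibility are therefore unknown, no difference between doses could be retested, and a region absent from both lists is not shown to be equal at the doses. A region is also given to a gene by position alone.

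RUNX proteins bind DNA through the runt domain, as a complex with the partner CBFβ, the product of Cbfb, which does not itself contact DNA. ETS proteins share the ETS domain, which recognises a GGAA core, and RUNX1 and ETS1 can bind neighbouring sites together. In NK cells Runx3 is known for its role in the response to IL-15, Ets1 for NK cell development, and Elf4 for NK cell development and perforin expression. IL-15 itself signals mainly through STAT5.

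Every start site tabled for these genes lay in an accessible region, and none of those regions was in either list. RefSeq (GRCm38.p6) gave 12 start sites for 8 of the 10 genes, and Ets1 and Fli1 were not matched in that table. All 12 sites were covered, against 52.3% of 21263 start sites of protein-coding genes. Listed regions are rare at starts in general, with 68 up (0.611%) and 24 down (0.216%) among the 11126 covered start sites of protein-coding genes, so that 0 of 12 is near the background. The regions over the 12 sites measured 342 to 1798 bp, with a median of 1142 bp. The median was 400 bp over all regions and 794 bp over all regions within 1000 bp of a gene end, so that wide regions are common at gene ends in general. Some of the 12 sites lay inside the gene, farther from its ends. The 15 member regions within 1000 bp of a gene end had a median of 735 bp, not above that of all such regions. The RUNX genes are known to be transcribed from an outer and an inner promoter, and the table held both sites for Runx1 and Runx3.

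The outer promoters of the 3 RUNX genes carry the same short stretch, shown here because it holds a pair of RUNX motifs and lay wholly within an accessible region at each gene. Each line gives 30 bases of the gene's strand, 5′ to 3′, and capitals mark the 18 bases that all 3 share.
Runx1 (chr16:92826025-92826054, minus strand): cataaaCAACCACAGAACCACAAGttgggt
Runx2 (chr17:44814583-44814612, minus strand): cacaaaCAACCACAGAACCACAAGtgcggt
Runx3 (chr4:135120503-135120532, plus strand): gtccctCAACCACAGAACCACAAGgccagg

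This was the longest stretch common to the 3 promoters. It holds the RUNX motif TGTGGT 2 times, both on the opposite strand. The stretch began 27 bases into the Runx1 transcript and 22 bases into the Runx2 transcript, counting the start site as base 1. In Runx3 it lay before the start, at bases -136 to -119. Among 32851 promoter windows, each from 250 bases before to 50 after a start, 4 held the stretch on either strand. Besides the 3 RUNX genes this was Gm16225, a long noncoding RNA on the other strand, whose window overlaps that of Runx3. For comparison, 16.8% of all windows held TGTGGT at least once on either strand and 1.81% at least 2 times. Among the 12 windows of the members, 3 held it, and these were the outer promoters of Runx1, Runx2 and Runx3, with 2, 3 and 2 matches.

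Runx3 is shown in full for the 250 bases before each of its start sites, since both were accessible while 1 of the regions between them, described below, was in the down list. Capitals mark the RUNX matches.
Runx3 outer promoter (chr4:135120395-135120644, plus strand): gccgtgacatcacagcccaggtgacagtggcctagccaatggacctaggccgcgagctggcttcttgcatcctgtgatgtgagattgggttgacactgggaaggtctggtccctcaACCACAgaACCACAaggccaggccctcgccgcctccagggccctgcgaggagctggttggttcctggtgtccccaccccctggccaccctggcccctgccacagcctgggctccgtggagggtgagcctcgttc
Runx3 inner promoter (chr4:135152295-135152544, plus strand): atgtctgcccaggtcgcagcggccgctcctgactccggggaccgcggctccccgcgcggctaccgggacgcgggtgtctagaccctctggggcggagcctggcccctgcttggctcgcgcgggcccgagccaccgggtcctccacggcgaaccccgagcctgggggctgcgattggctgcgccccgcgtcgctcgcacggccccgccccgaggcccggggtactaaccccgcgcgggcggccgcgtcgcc

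The outer stretch was 65.2% G and C and the inner one 78.8%, and the inner one held no match to TGTGGT. The median over all promoters was 52.4%. Motifs of the ETS family were searched as CCGGAA and AGGAAG on both strands. CCGGAA was found in 1 of the 12 windows, that of the inner Runx1 promoter, and in 14.9% of all windows. AGGAAG was found in 5 of 12 and in 35.4% of all windows. The lines below show the 5 ETS matches that lay before a start site, in promoters of both families, with the motif in capitals. Those of Runx1 and Cbfb lay in the accessible region over the start, and those of Runx2 and Elf4 lay outside it.
Runx1 inner promoter, bases -106 to -101: cccaggctgataCCGGAAaggcctgtgatt
Runx1 outer promoter, bases -124 to -119: caggtggagggcAGGAAGggcatagctcag
Runx2 outer promoter, bases -226 to -221: taaagagacagaAGGAAGgaaagggagagg
Cbfb promoter, bases -191 to -186: ggggaagtgctgAGGAAGgagcagggtttc
Elf4 outer promoter, bases -131 to -126: ctggggaactaaAGGAAGgagatggagggg

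A STAT motif, TTCNNNGAA, was found in 1 of 12 windows, that of Etv6, where it overlapped an AGGAAG match, and in 8.30% of all windows. An AP-1 motif, TGANTCA, was found in 2 of 12 windows, of Elf1 and Elf4, and in 7.81% of all windows. These shares over 12 windows are a description of letters and show no binding.

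The members differed widely in the number of regions assigned to them. Ets1 had 79 regions, Runx1 67, Runx2 55, Runx3 40, Etv6 36, Fli1 32, Elf1 22, Ets2 20, Elf4 14 and Cbfb 5. The median over the 16392 genes with at least 1 region was 3, and 99% of genes had 35 or fewer, so that Ets1, the RUNX genes proper and Etv6 lay above that level. Inside the gene span, the members had between 1.06 regions per 10 kb at Cbfb and 2.79 at Runx3. The median over 14683 genes with a region inside was 0.986 per 10 kb and the 90th percentile 3.11, so that all 10 members were above the median and none above the 90th percentile.

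**Figure D1:**
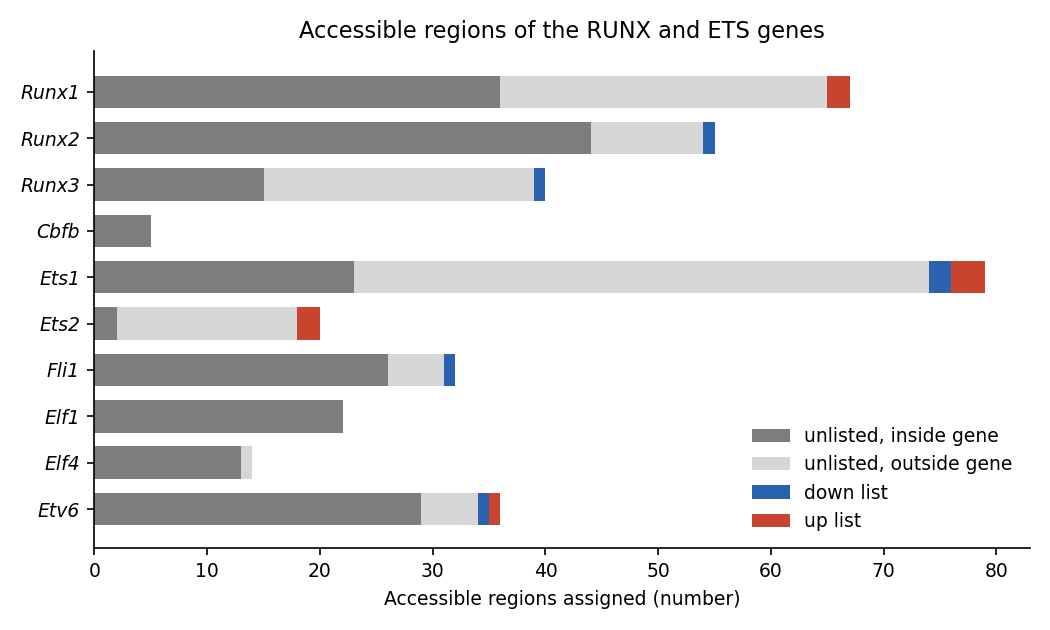
Number of accessible regions assigned to each gene, split into unlisted regions inside the gene span (dark grey), unlisted regions outside it (light grey), down regions (blue) and up regions (red). Ets1 has 79 regions and Cbfb 5, and Cbfb, Elf1 and Elf4 have no listed region.

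Of the 370 regions, 8 were in the up list, or 2.16% (95% Wilson interval 1.10 to 4.21%, counting error only), against a background of 4.21% of all regions. The down list held 6, or 1.62% (0.745 to 3.49%), against 1.40%. Both lists together held 14, or 3.78% (2.27 to 6.25%), against 5.61%. The down share was close to the background. The up share was lower, with an interval that ended at about the background value, and neighbouring regions of a gene are not independent, so that such intervals are too narrow. An up region was assigned to 4 of the 10 genes and a down region to 5, against 16.1% and 5.39% of all genes with a region. Those shares rise with the number of regions. Among the 105 genes with 40 to 79 regions, 69.5% had an up region, 66.7% a down region and 6.67% neither.

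The up regions of these genes were all outside them, while most down regions were inside. Of the 219 regions that overlapped the span of their gene, 0 were up (Wilson upper limit 1.72%; 3 counts of the total, the limit that a count of 0 allows, would be 1.37%), and 4 were down (1.83%, 0.713 to 4.60%). Over all genes, 3.42% of regions inside spans were up and 1.36% down. Of the 151 member regions outside the spans, 8 were up (5.30%, 2.71 to 10.1%) and 2 down (1.32%, 0.364 to 4.70%), against 5.46% and 1.45% over all genes. Outside the spans the up share was close to the background, and the lower share of the members came from regions inside the genes. In the up list as a whole, 49.5% of regions overlapped the span of their nearest gene, and in the down list 59.6%. The 8 up regions lay between 19.7 and 466 kb from their gene, and 6 of them more than 100 kb away. Each of the 8 was nearer to a gene that does not code for protein, so that none was assigned to a member when genes of any kind were used, and 0 lay within 10 kb of a member.

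**Figure D2:**
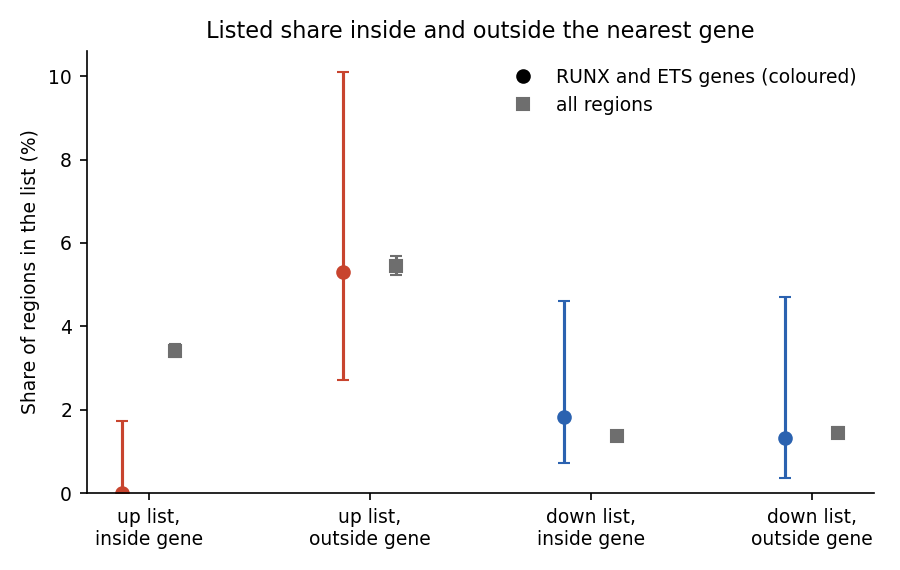
Share of regions in the up list and the down list (%), for regions inside and outside the span of the nearest protein-coding gene, with 95% Wilson intervals for counting error. Circles are the RUNX and ETS genes (219 regions inside, 151 outside) and squares are all regions. The up share inside the members is 0, against 3.42% of all regions inside genes, and the other shares of the members have intervals that include the value of all regions.

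**Figure D3:**
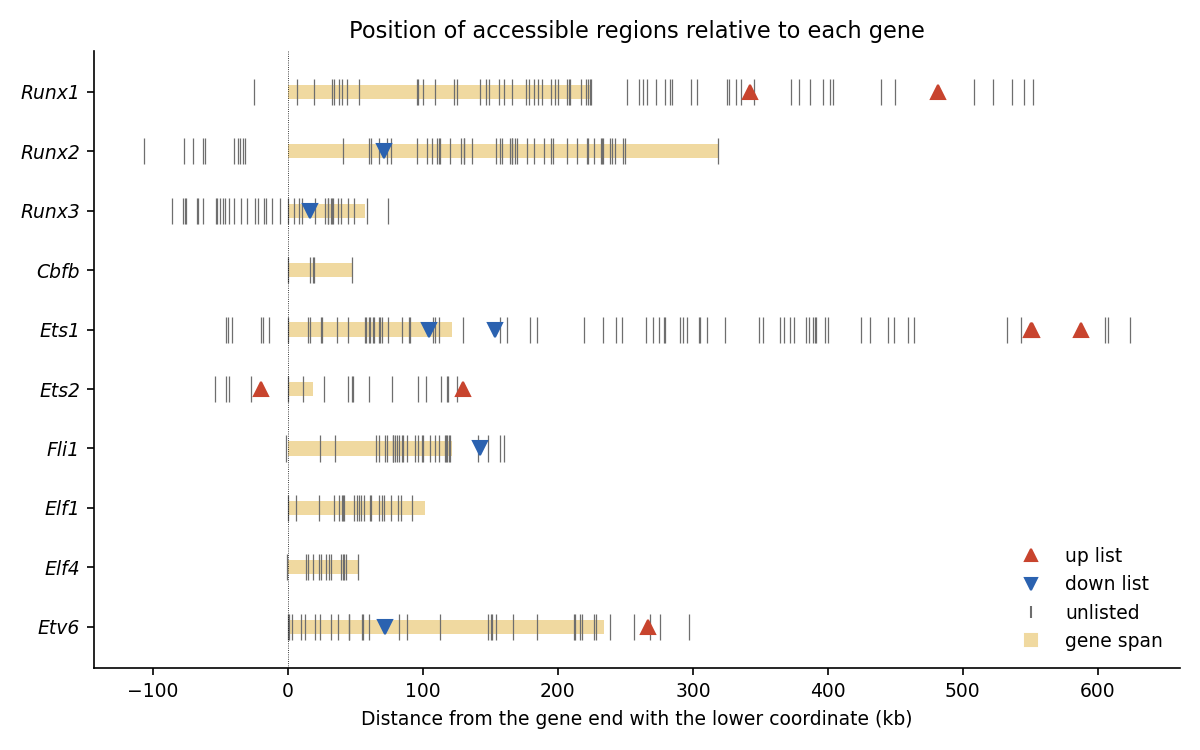
Position of each accessible region of the 10 genes, in kb from the gene end with the lower coordinate, whatever the strand. Yellow bars are gene spans, grey ticks unlisted regions, red triangles up regions and blue triangles down regions. All red triangles lie off the bars, and 4 of the 6 blue triangles lie on them.

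Among the DNA-binding RUNX subunits, Runx1 had only up regions listed, and Runx2 and Runx3 only down regions. This rests on 2, 1 and 1 regions, and 50.5% of the genes with 40 to 79 regions likewise had listed regions of a single kind. Runx1, best known for the origin of blood stem cells and expressed through many blood lineages, lies at chr16:92601466-92826074 on the minus strand. Of its 67 regions, 36 were inside the gene and 30 lay before its outer start, 20 of them more than 100 kb from the gene. The 2 up regions were in that upstream stretch. The nearer, of 462 bp at chr16:92943821-92944282, lay 118 kb from the gene, and the farther, of 424 bp at chr16:93083127-93083550, lay 257 kb from it. They were 139 kb apart, and neither had another listed region within 50 kb. The nearest other coding genes were 403 and 499.9 kb from them, Clic6 and Setd4.

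Both Runx1 start sites lay in wide unlisted regions. The region over the outer start was 1114 bp, at chr16:92825452-92826565. The one over the inner start was 1798 bp, at chr16:92697186-92698983, and was the widest of all 370 member regions, wider than 99.5% of all regions.

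Runx2, known as the master regulator of bone formation and also expressed in lymphocytes, spans chr17:44495987-44814797 on the minus strand. It had 55 regions, 45 inside and 10 beyond the far end of the gene from the tabled start. Its single listed region, of 510 bp at chr17:44566976-44567485, was down and lay inside the gene, 247 kb after the outer start and 71.0 kb from the nearer gene end. Of the 12 regions over start sites, that of Runx2 was the narrowest, with 342 bp at chr17:44814489-44814830. The widest region of the gene, of 1632 bp at chr17:44735143-44736774, was unlisted and inside the gene, away from the single tabled start.

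Runx3, which acts in cytotoxic lymphocytes, occupies chr4:135120645-135177990 on the plus strand. Of its 40 regions 16 were inside the gene, 22 lay before the outer start and 2 beyond the other end, none more than 100 kb away. The 22 upstream regions were all unlisted. The listed region was down, 488 bp wide at chr4:135136616-135137103, and lay between the promoters, 16.2 kb after the outer start and 15.7 kb before the inner one. It stood alone, since the next listed region on the chromosome was 363 kb away, although 23 other accessible regions lay within 50 kb. The other regions between the promoters were all unlisted. The nearest up region of any gene was 1223 kb from Runx3. The regions over its start sites measured 735 and 635 bp, and the widest of the gene, 1739 bp at chr4:135158727-135160465, lay beyond both.

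Cbfb, at chr8:105170674-105217989, had 5 regions, all inside the gene and all unlisted. The widest, of 1698 bp at chr8:105170132-105171829, covered the start site. Cbfb shared this with most genes that have few regions, since 87.0% of the 13889 genes with 1 to 9 regions had no listed region. Together the 4 RUNX subunit genes had 167 regions, of which 2 were up (1.20%, 0.329 to 4.26%) and 2 down (the same share). Both background shares, 4.21% up and 1.40% down, lie within that interval.

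Ets1 and Fli1 are neighbours on chromosome 9 and together held 111 regions, 3 up and 3 down. Each is a share of 2.70% (0.923 to 7.65%), an interval that includes the background of both lists, 4.21% up and 1.40% down. Fli1, an ETS factor of blood and vessel development, lies at chr9:32422204-32543432, and Ets1 at chr9:32636241-32757820. Inside Fli1 there were 26 regions, none listed, and inside Ets1 24 regions, 1 of them down. The 92.8 kb between the genes held 11 regions, 5 nearer to Fli1 and 6 nearer to Ets1. The single listed region there was down, 559 bp wide at chr9:32564426-32564984, 21.0 kb from Fli1 and 71.3 kb from Ets1. Neither gene had a start site in the table used, so that positions before or after the start are not given for them.

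The 2 down regions of Ets1 lay close to its end with the higher coordinate. The first, of 654 bp at chr9:32740722-32741375, was inside the gene, 16.4 kb from that end. The second, of 463 bp at chr9:32789271-32789733, lay 31.5 kb outside it. It overlapped Gm3331, a gene that does not code for protein, and was not assigned to Ets1 when genes of any kind were used. The 2 down regions were 47.9 kb apart, and no up region lay within 50 kb of either.

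The 3 up regions of Ets1 were much farther out, in the 1728 kb that separate Ets1 from the next coding gene, Kirrel3. That interval held 49 regions, all assigned to Ets1. Of the 7 within 100 kb of Ets1, 1 was down and 0 up. Of the 34 from 100 to 400 kb, 0 were listed, and of the 8 beyond 400 kb, 3 were up. Over all genes, 5.64% of regions beyond 100 kb were up and 2.69% down, and the numbers here are too small to read a difference from. Those 3 regions measured 517 bp (chr9:33186291-33186807), 330 bp (chr9:33187224-33187553) and 321 bp (chr9:33223914-33224234). The first pair was separated by 416 bp, and the last lay 36.4 kb further. At 428 to 466 kb, these 3 regions lay farther from their gene than any other listed region of the members. Without Ets1, the other 9 genes had 291 regions, of which 5 were up (1.72%) and 4 down (1.37%).

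Ets2, an ETS factor that responds to MAP kinase signalling, had only up regions listed. Of the 647 genes with 20 to 39 regions, 55.5% had an up region and 60.1% had listed regions of a single kind. Ets2 lies at chr16:95702407-95721049 on the plus strand, and 18 of its 20 regions were outside the 18.6 kb gene. The nearer up region, of 502 bp at chr16:95682245-95682746, lay 19.7 kb before the gene and was the nearest to its gene among the 8 up regions of the members. The other, of 291 bp at chr16:95831574-95831864, lay 111 kb beyond the far end. The neighbour of Ets2 on its upstream side is Erg, another ETS gene, which had 4 of 30 regions up and 0 down. Over all regions, 4.21% were up and 1.40% down, and the 55.5% given above also covers genes with as many regions as Erg. The listed region closest to the upstream up region of Ets2 was an up region of Erg, 69.6 kb away. Closest to the other was an up region of the coding gene Psmg1, 40.5 kb away. Ets2's start site lay in an unlisted region of 1170 bp.

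Etv6, a transcriptional repressor of the ETS family, was the member besides Ets1 with both kinds of listed region. The gene spans chr6:134035700-134270158 on the plus strand and had 36 regions, 30 of them inside. Its down region, of 569 bp at chr6:134107425-134107993, was inside the gene, 72.0 kb after the start. Its up region, of 412 bp at chr6:134301981-134302392, was 31.8 kb beyond the far end. The 2 regions were 194 kb apart. Of the 647 genes with 20 to 39 regions, 14.7% had both an up and a down region, and of those with 40 to 79 regions, where Ets1 belongs, 42.9% had both. The start site was covered by an unlisted region of 1591 bp.

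Elf1 and Elf4, related ETS activators, had no listed region. Elf1, at chr14:79481174-79582491, had 22 regions, all inside the gene, and 25.2% of genes with 20 to 39 regions had none listed. Elf4, at chrX:48411049-48463132, had 14 regions, of which 13 were inside and the other was 347 bp away, and 48.4% of the 1747 genes with 10 to 19 regions had none listed. Each had 2 tabled start sites, and the regions over them measured 1454 and 741 bp at Elf1 and 931 and 1252 bp at Elf4.

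**Figure D4:**
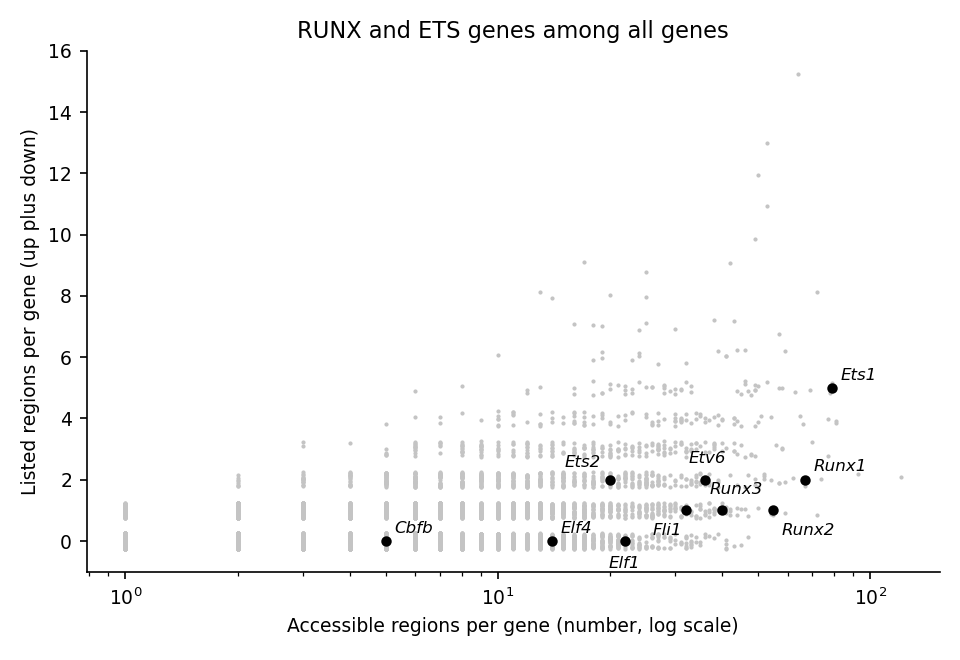
Listed regions per gene (up plus down, with a small vertical scatter added for all genes in grey) against the number of accessible regions per gene on a log scale, for 16392 genes. Black points are the RUNX and ETS genes, with 5 listed regions at Ets1, 2 at Runx1, Ets2 and Etv6, 1 at Runx2, Runx3 and Fli1, and 0 at Cbfb, Elf1 and Elf4.

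Median region widths were similar across the members, with the regions over start sites included. The median width per gene ran from 342 bp at Runx2 to 496 bp at Etv6, and the median over all 370 regions was 440.5 bp (interquartile range 258 to 651 bp), against 400 bp over all regions. The 8 up regions measured 291 to 517 bp and the 6 down regions 463 to 654 bp. Their medians, 418 and 534.5 bp, compare with 453 and 537 bp in the complete lists. Of the 12 regions over start sites, 10 were wider than every listed region of the members.

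**Figure D5:**
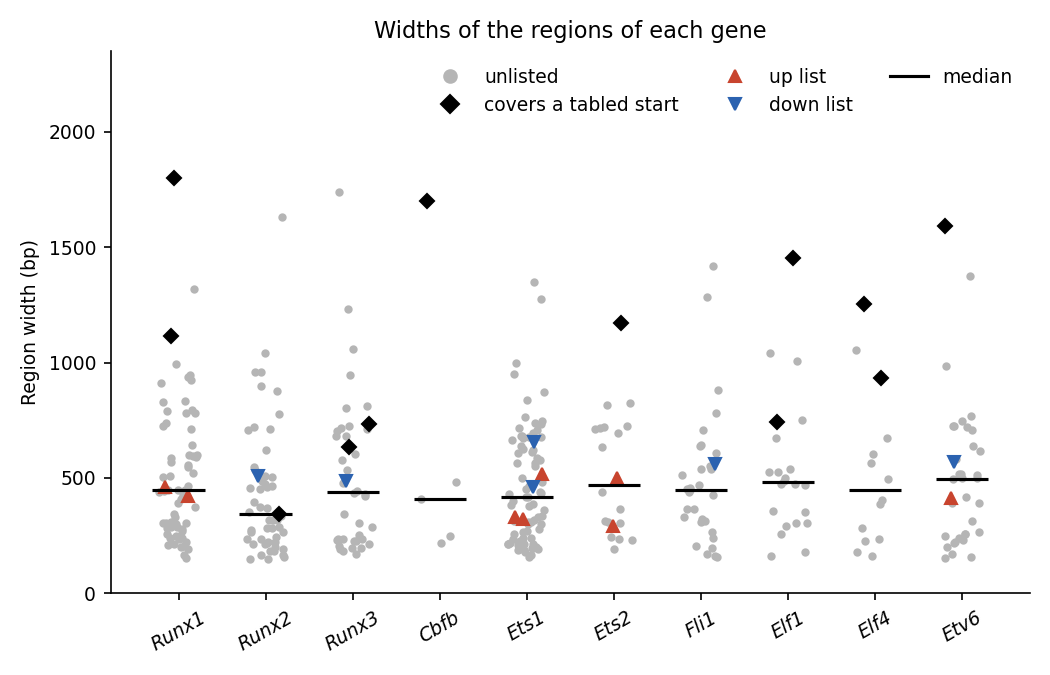
Width (bp) of each region by gene, with random horizontal scatter. Grey points are unlisted regions, black diamonds regions over a tabled start site, red and blue triangles up and down regions, and lines the medians. Listed regions lie between 291 and 654 bp, and the regions over start sites between 342 and 1798 bp.

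Of the 370 regions, 15 (4.05%, 2.47 to 6.58%) lay within 1000 bp of an end of a protein-coding gene, against 17.1% of all regions. A gene has the same number of ends however many regions it has, so this share depends on the regions per gene. Every member had more regions than the median gene, which had 3. More than 100 kb from their gene lay 17.6% of member regions, against 6.10% of all regions, and 42 of these 65 regions belonged to Ets1. Among the 65, 6 were up (9.23%) and 0 down, against 5.64% and 2.69% of all regions at such distances.

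The wider families were then counted. The other 20 ETS genes had 126 regions, of which 5 were up (3.97%, against 4.21% of all regions) and 0 down (interval up to 2.96%, against 1.40%). The up share was near the background, and the down interval included it. The 5 up regions were at Erg (4) and Elk3 (1). Erg is known for blood stem cells and endothelium, and 3 of its 4 up regions were inside the gene. Of the 20 genes, 15 were overlapped by at least 1 region, Gabpa, Elk1, Elk4, Elf2, Elf5, Etv3 and Spi1 among them. All of the 15 except Erg and Elk3 had none listed. No region was assigned to Spdef, and none overlapped Ehf, Elf3, Fev or Spic. Among 10 RUNX partners and corepressors, 118 regions were counted, 2 up (1.69%, 0.466 to 5.97%) and 1 down (0.847%, 0.150 to 4.64%), with both intervals including the background. Tle4, a Groucho corepressor, had 1 up region 199 kb away and 1 down region inside the gene, and Hipk2, a kinase that phosphorylates RUNX1, had 1 up region inside. Tle3 had 41 regions and none listed, as had 6.67% of the genes with 40 to 79 regions.

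Regions were also set against marker genes of the cell types that a splenic culture could hold. All 10 NK cell genes, Ncr1 and Eomes among them, were overlapped by at least 1 region. This also held for 5 of 7 T cell genes, 2 of 5 B cell genes and 4 of 6 myeloid genes. No region overlapped Cd4, Cd8b1, Ms4a1, Cd79a, Cd79b, Lyz2 or Adgre1. Of the 129 regions of the NK cell genes, 11 were down (8.53%, against 1.40% of all regions) and 1 was up (0.775%, against 4.21%). A down region was found at 5 of the 10 genes, against 5.39% of all genes and 15.2% of those with 10 to 19 regions. These were Ncr1 (4 regions), Gzma (3), Klrb1c (2), Il2rb (1) and Itga2 (1). Klrk1, Eomes, Tbx21, Gzmb and Prf1 had none, and neighbouring regions of a gene are not independent. The B cell genes had 3 of 24 regions up, all at Ebf1, the T cell genes 1 of 20 up, at Cd6, and the myeloid genes 0 of 30 in either list. A region gives no level, so shares of other cells in the cultures could not be measured, and their part in the lists was not tested.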

How the data were processed

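Chromatin accessibility was measured by ATAC-seq in 4 samples, grouped by the dose in their titles. Per the submitters' processing notes, BWA, ArchR, MACS2 and HOMER 4.11.1 and the build mm10 were used, with no role or order given. The peak threshold, the differential test, its cutoff and any pooling of replicates are not given in the sources used here. As deposited by the authors, the tables hold region positions and widths in bp, with 0 columns of values per sample, so that the planned comparison of doses per sample was not possible and depth is unknown.

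Starts of the full list were 0-based and were raised by 1. Each listed region was then looked up in it, and 0 were missing. Genes came from RefSeq GRCm38.p6 (21900 protein-coding genes), which has the coordinates of mm10. All 32851 tabled starts were tested for overlap: 39.8% lay in a region, against 3.07% and 3.06% after moving them by 100 kb either way. Assignment was tested on simulated data, where 200 of 200 regions were recovered. These were placed inside or close to genes with free space beside them, so overlapping genes and long distances were not covered. The members and lists were chosen with earlier results of these data known. Described one by one are all listed regions, the widest region of each member where it adds to the account, and regions over start sites. Intervals are 95% Wilson intervals (scipy 1.17.1). No test was run, since regions of a gene are not replicates. Alternatives changed the assignment, the distance limit, the width limit, the boundary distance and the members. Of the marker genes listed in the design, 1 is not reported here.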

Additional observations from a re-analysis of the deposited data

How the results depend on the processing

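No paired analysis was possible because the tables give positions only. The replicates, numbered 1 and 2 at each dose, could therefore not be left out in turn, nor could a stricter threshold be set. Of 52 alternatives to 9 values, 33 stayed within the 95% interval of a share or median, or within 1.5 times a count, and 19 moved beyond it. The up regions rest on the assignment to distant genes. With the nearest gene of any biotype, regions within 10 kb of a member or regions overlapping it, the members had 232, 232 and 220 regions in place of 370. Under each of these 3, the up regions numbered 0 in place of 8, the up share was 0% and the members with an up region numbered 0 in place of 4. With a limit of 100 kb there were 2 up regions (0.656%) at 2 members. Among regions at least as wide as the median of all regions, 203 remained, with a median of 623 bp by construction, and 5 were up. There the down share was 2.96% in place of 1.62%, within its interval of 0.745 to 3.49%. Without Ets1, 5 were up. The down regions numbered between 4 and 6 under all these alternatives.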

Other observations

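For members with few or no listed regions, the nearest listed regions of other genes lay at very different distances. An up region assigned to Wbp4 lay 11.2 kb from Elf1, which itself had no listed region. The nearest up region to Cbfb was 127 kb away and assigned to Fhod1, and the nearest down region was 2283 kb away. For Elf4 the nearest up region was 250 kb away, at Rbmx2, and the nearest down region 5911 kb away. Around Runx2 the nearest up region, at Supt3, was 282 kb from the gene. Fli1 had no up region within 643 kb, and the nearest was the first of the distant up regions of Ets1.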
